A study of Mus musculus with 64 samples.

Results

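RNA from brown adipose tissue (BAT) of 4 FANKO and 4 WT mice, all taken at ZT 6, was compared gene by gene. These 8 samples were chosen by their labels from the 64 samples of the series, which cover BAT and epididymal white adipose tissue (eWAT), both genotypes and ZT 6, ZT 10, ZT 18 and ZT 22. FANKO mice carried a *Nampt* allele (NamptTM1Jtree) whose exon 3 is flanked by loxP sites, together with an Adiponectin-Cre transgene, so that the deletion was confined by design to cells that express adiponectin. WT mice were Cre- littermates from the same cross, and the labels give all samples this strain. All mice were males, 2 to 4 months old, fed chow, under lights from 6 am to 6 pm, and ZT 6 is the middle of the light phase, when mice rest. Each group of genotype and time point held 4 samples.

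NAMPT is the rate-limiting enzyme of the pathway that rebuilds NAD+ from nicotinamide. BAT is rich in mitochondria and burns fuel to make heat, through the uncoupling protein UCP1. Cells answer damage with partly separate programs. HSF1 drives cytosolic chaperones, the unfolded protein response adjusts folding in the endoplasmic reticulum, ATF4 drives amino acid genes when translation initiation factor eIF2 is phosphorylated, NRF2 drives antioxidant genes, and p53 answers DNA damage. Many of these genes also follow the daily cycle of feeding, activity and corticosterone.

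*Nampt* was measured first, as a check of the labels. On the scale of CPM, the counts divided by the scaled size of each library, it read 558.5, 479, 479 and 490 in the 4 WT samples and 124, 109, 154 and 136 in the 4 FANKO samples. All FANKO values lay below all WT values. The log2 fold change was -1.94 ± 0.14 (SE, n = 4 and 4, edgeR quasi-likelihood test, adjusted p = 6.15e-18). The count covers the whole gene (GRCm38 chr12:32819545-32853349, plus strand) and not the deleted exon alone, and cells that do not express adiponectin keep the gene.

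The 8 libraries held 9585278 to 22369728 assigned counts in WT and 12192850 to 14146662 in FANKO. Genes of the mitochondrial genome took 20 to 28% of the counts in WT and 7.48 to 16% in FANKO. The summed level of the 10 brown adipocyte markers was 15900 to 20100 CPM in WT and 6040 to 10400 CPM in FANKO. That sum does not tell BAT from eWAT, where it was 9220 to 14900 CPM. *Ucp1*, the defining gene of brown adipocytes, read 3642, 6266, 3631 and 6711 CPM in the WT and 945, 1241, 1651 and 802 CPM in the FANKO samples, against 0 to 7.10 CPM over all eWAT samples. Of the 10 markers 9 fell and none rose at an FDR of 0.01 (90% lower, against 23.9% of all genes tested). Macrophage markers summed to 127 to 159 CPM in WT and 885 to 1500 CPM in FANKO, with 9 of 10 higher (90%). Of all genes tested 24.4% were higher, the share to set beside this and the marker counts that follow. T cell markers went from 1.81 to 2.98 CPM up to 52.2 to 159 CPM, with 7 of 7 higher, B cell and plasma cell markers from 8.27 to 12.7 CPM up to 212 to 789 CPM, with 5 of 6 higher, and fibroblast and progenitor markers from 412 to 492 CPM up to 778 to 1270 CPM, with 6 of 6 higher. Of neutrophil markers 1 of 3 and of Schwann cell markers 2 of 4 were higher. Endothelial markers went from 506 to 546 CPM down to 367 to 433 CPM, with 4 of 5 lower, against 23.9% of all genes. Red cell markers went from 260 to 455 CPM down to 99.2 to 163 CPM, with 5 of 5 lower. With library size alone 0 of 5 endothelial and 2 of 5 red cell markers were lower. Skeletal muscle markers were highest in replicate 1 of both groups, at 326 CPM in WT and 222 CPM in FANKO. In the other samples they summed to 85.5 to 108 CPM in WT and 14.7 to 22.5 CPM in FANKO. FANKO replicates 1 and 4 stood apart, with the higher macrophage sums (1450 and 1500 CPM) and the lower mitochondrial shares (7.48 and 9.66%). In these bulk samples fewer cells of a type and less RNA per cell cannot be told apart, and the part of these cell types in each result that follows was not tested.

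At ZT 6, 9768 of 20249 genes tested (48.2%) differed between genotypes at an FDR of 0.01, the threshold used throughout. Of these, 4933 (24.4%) were higher and 4835 (23.9%) lower in FANKO. For 10180 genes (50.3%) the 4 FANKO and 4 WT values did not overlap. This split between higher and lower rests on the TMM scaling, since with library size alone the median of all genes moved by 0.56 (log2) and 85.3% of the called genes were higher, against 50.5%. Without FANKO replicates 1 and 4, 3832 genes were higher and 3403 lower.

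The 8 largest increases with non-overlapping groups were those of *Ighg2c* (an immunoglobulin heavy chain), *Oas3* (an interferon-induced antiviral enzyme), *Slfn4*, *Apol9a*, *1700018G05Rik*, *Ubd* (a ubiquitin-like protein), *Gm3880* and *Ly6c2*. *Oas3* read 0, 0.283, 0 and 0.349 CPM in WT and 95, 110, 118 and 88.1 CPM in FANKO. *Ighg2c* read 0, 0.283, 0.156 and 0 CPM in WT and 63.9, 55.1, 135 and 67.5 CPM in FANKO. The WT values of both genes were at or near 0, and no fold is given for them. All 22 of the 22 interferon-stimulated genes listed rose (100%, against 24.4% of all genes), by a median log2 fold change of 5.11. *Mx1*, an antiviral GTPase, rose by 7.50 ± 0.58 and *Ifit3* by 7.31 ± 0.52 (log2, SE).

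The 8 largest decreases were those of *Mmd2*, *Zfp185*, *Car14*, *Gm10032*, *Car3*, *Fgf14*, *Rbp4* and *A830018L16Rik*. *Car3*, a carbonic anhydrase abundant in adipocytes, fell by 4.65 on the log2 scale (SE 0.24). *Rbp4*, the plasma retinol carrier, fell by 4.24 (SE 0.38), from 61.9, 66.8, 67.5 and 92 CPM in WT to 3.92, 3.61, 4.82 and 2.97 CPM in FANKO. Like the increases, these were ranked only among genes with non-overlapping groups, so by that rule no FANKO value of these genes reached a WT value.

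Of 19 thermogenic genes 14 fell and 1 rose (73.7 and 5.26%, against 23.9 and 24.4% of all genes), with a median log2 fold change of -1.49. *Slc27a2*, a fatty acid transport protein, fell by 3.24 on the log2 scale, and the respiratory chain subunits *Cox8b* and *Cox7a1* fell by 3.05 and 2.28. *Gk*, glycerol kinase, fell by 2.51. Of 16 lipid synthesis genes 4 fell and none rose, a share of 25% that is near the 23.9% of all genes, and these were *Dgat2*, *Gpam*, *Acacb* and *Agpat2* with log2 fold changes of -1.35, -1.25, -0.96 and -0.95. The calls for *Acacb* and *Agpat2* were lost without FANKO replicates 1 and 4 (adjusted p = 0.0178 and 0.0935), and that for *Agpat2* without FANKO ZT 6 replicate 1 (0.0107). Of 18 NAD genes 9 fell and 3 rose (50 and 16.7%, against 23.9 and 24.4% of all genes). With library size alone 4 NAD genes were lower and 7 higher. Lipid synthesis genes then became 2 lower and 3 higher and thermogenic genes 10 lower and 1 higher. *Naprt* (the nicotinic acid route to NAD+) fell by 1.76 and *Sirt3*, a mitochondrial deacylase that uses NAD+, by 1.62. *Nnmt*, which methylates nicotinamide, fell by 1.92. The brown adipocyte marker sum was lower in every FANKO library than in any WT library.

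Stress genes were read in lists, 282 genes in all, of which 281 could be tested. At ZT 6, 100 of them were higher and 79 lower in FANKO, so that 63.7% were called, against 48.2% of all genes tested. That share of all genes depended on the filter on low counts, being 58.3% of 14113 genes with a minimum count of 50. For 172 of the 281 the groups did not overlap, against 50.3% of all genes. The lists differed in direction.

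**Figure D1:**
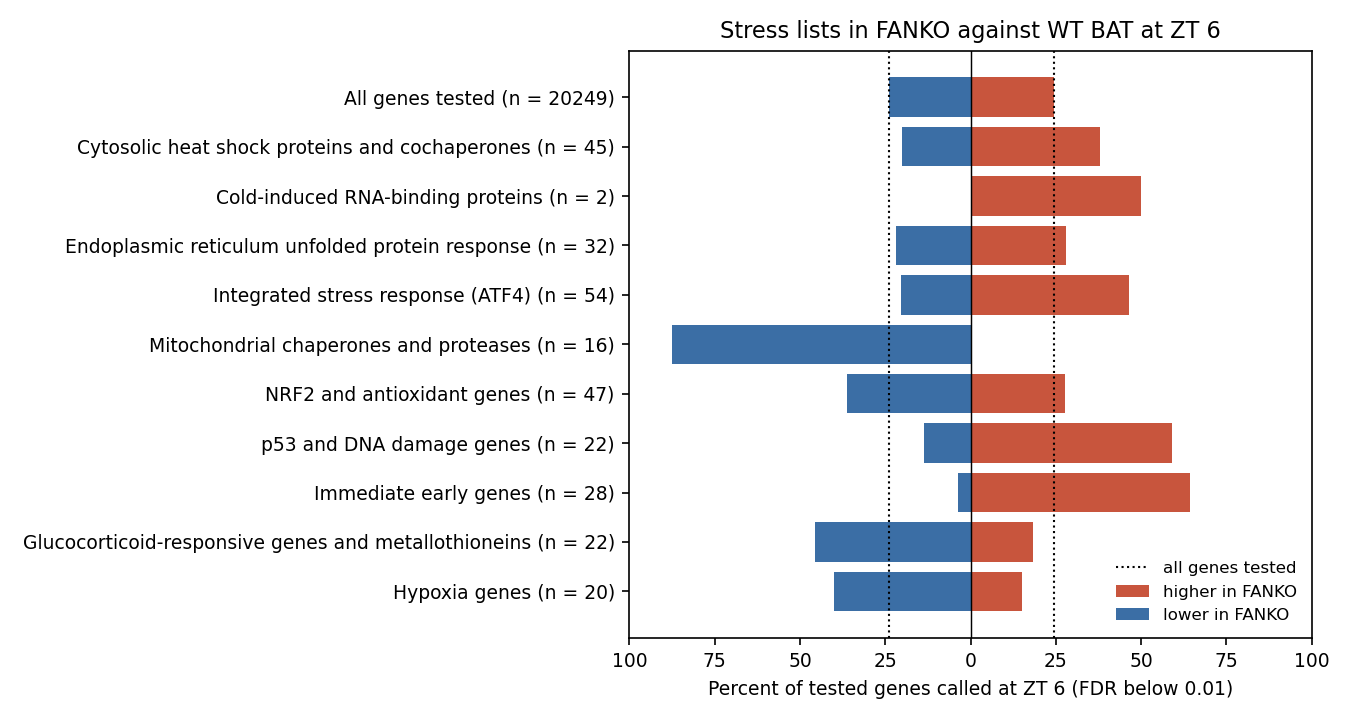
The share of each gene list, in percent of the members tested, that was higher or lower in FANKO than in WT BAT at ZT 6 at an FDR of 0.01, beside all genes tested (24.4% higher and 23.9% lower). Dotted lines mark the shares of all genes. The bar for mitochondrial chaperones and proteases reaches 87.5% lower, with none higher, and that for immediate early genes 64.3% higher.

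Mitochondrial chaperones and proteases fell together. Of 16 genes 14 were lower and none higher (87.5% lower, against 23.9% of all genes), with a median log2 fold change of -1.06. The 7 chaperones and both prohibitins all fell, and 5 of 7 proteases did. *Hspd1*, the HSP60 chaperonin of the mitochondrial matrix, read 411, 477, 516 and 490 CPM in WT and 146, 162, 212 and 130 CPM in FANKO. Its partner *Hspe1* fell by 1.60 on the log2 scale, the protease subunit *Clpp* by 1.44 and the prohibitin *Phb2* by 1.42. The mitochondrial share of counts fell in the same libraries. With library size alone the median was -0.511, with 10 genes lower and 2 higher.

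Among 45 cytosolic heat shock genes 17 were higher and 9 lower, with a median log2 fold change of 0.18. The shares of 37.8% higher and 20% lower stand beside 24.4 and 23.9% of all genes, which are also the shares beside the subgroups that follow. The small heat shock proteins, which hold unfolded proteins until the HSP70 system takes them, had 4 of 6 members higher and none lower. *Cryab* read 8.15, 12.8, 15.4 and 12.1 CPM in WT and 67.4, 92, 75.7 and 70.5 CPM in FANKO, and rose by 2.67 ± 0.27 (log2, SE). *Hspb8* rose by 1.72 ± 0.18. Part of the exonic sequence of *Cryab* (17%) is shared with *Hspb2* on the other strand. Of 12 HSP70 chaperones and exchange factors 5 rose and 2 fell, and *Bag2*, an HSP70 cochaperone, fell by 1.29. The J-domain cochaperone *Dnaja4* rose by 1.24 ± 0.33, with 44.1% of its exonic bases shared with *Wdr61* on the other strand. Of 11 HSP90 genes and cochaperones 4 rose and 2 fell.

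The heat shock transcription factors themselves showed small differences. *Hsf1* read 14.6, 14.2, 12.6 and 14 CPM in WT and 14.7, 18.1, 13.9 and 15 CPM in FANKO, and its log2 fold change of 0.16 did not pass the test (adjusted p = 0.282). *Hsf2* fell by 0.41 (adjusted p = 0.000448) with overlapping groups, a direction that turned to 0.16 with library size alone. Of the 2 cold-induced RNA-binding proteins, *Rbm3* rose by 0.36 (adjusted p = 0.00517), again with overlapping groups. The call for *Rbm3* was lost without WT replicate 1 (adjusted p = 0.0241) or 2 (0.0455), without FANKO replicate 3 (0.0216) or 4 (0.0574), without FANKO replicates 1 and 4 together (0.111) and in a fit of the ZT 6 BAT samples alone (0.0271). That last fit also ended the call for *Hsf2* (0.0417).

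In the endoplasmic reticulum unfolded protein response, 9 of 32 genes rose and 7 fell, a called share of 50% beside 48.2% of all genes. *Sdf2l1*, which keeps misfolded proteins soluble in the lumen, read 1.03, 1.28, 1.01 and 1.22 CPM in WT and 5.86, 4.41, 4.51 and 6.54 CPM in FANKO. *P4hb*, the disulfide isomerase PDI, rose by 0.87 ± 0.10 and the oxidase *Ero1lb* by 0.84 ± 0.14 (log2, SE). Of the sensors, *Ern1* (IRE1) rose by 0.82 ± 0.12. *Atf6* rose by 0.26 (adjusted p = 0.00872), a call lost in 10 of the 32 fits that left out 1 sample (adjusted p 0.0133 to 0.0399). These left out WT ZT 6 replicate 2, 3 or 4, FANKO ZT 6 replicate 1, 3 or 4, or replicate 3 of WT ZT 10, 2 or 3 of WT ZT 18 or 3 of WT ZT 22. It was also lost without FANKO replicates 1 and 4 (0.0395), with no filter on low counts (0.0232) and with TMM factors set without mitochondrial genes (0.0132). *Xbp1*, the transcription factor spliced by IRE1, had a log2 fold change of 0.08 with an adjusted p of 0.614.

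The ATF4 list had 25 of 54 genes higher and 11 lower (46.3% higher, against 24.4% of all genes), with a median of 0.46. *Atf3*, an ATF4 target and repressor, read 0.981, 2.13, 0.937 and 1.31 CPM in WT and 31.6, 28, 30.9 and 35.2 CPM in FANKO. The mitochondrial one-carbon enzymes *Mthfd2* and *Mthfd1l* rose by 2.84 ± 0.24 and 2.76 ± 0.26, and the cationic amino acid transporter *Slc7a1* by 2.71 ± 0.19 (log2, SE). Of 8 amino acid transporters 7 rose and 1 fell. Amino acid and one-carbon enzymes were divided, with 5 of 13 higher and 3 lower. *Asns*, asparagine synthetase and a standard ATF4 target, was named after its values were seen. It fell by 1.61 on the log2 scale, from 108, 93.3, 90.9 and 114 CPM in WT to 27.9, 34.6, 41 and 30.2 CPM in FANKO.

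*Atf4* itself had a log2 fold change of 0.15 (adjusted p = 0.498), with overlapping groups. *Ddit3* (CHOP) rose by 1.60 ± 0.21 and *Atf5* by 0.85 ± 0.21, the latter lost without FANKO ZT 6 replicate 2 (adjusted p = 0.0133). Of the 4 kinases that phosphorylate eIF2, *Eif2ak2* (PKR, itself interferon-inducible) rose by 1.20 ± 0.14, from 35.1, 30.9, 35.7 and 36.5 CPM in WT to 73.8, 70.6, 97.3 and 77 CPM in FANKO. *Eif2ak4* (GCN2) rose by 0.23 (adjusted p = 0.00661), a call lost in 9 of the 32 fits that left out 1 sample (adjusted p 0.0106 to 0.0682), namely WT ZT 6 replicate 2 or 4, FANKO ZT 6 replicate 2, 3 or 4, or replicate 3 of WT ZT 10, 2 or 3 of WT ZT 18 or 3 of WT ZT 22. *Eif2ak1* fell by 0.27, a call lost without FANKO ZT 6 replicate 1 (adjusted p = 0.0153) and under 5 other settings, and *Eif2ak3* (PERK) had a log2 fold change of -0.19 (adjusted p = 0.0582), and with library size alone both turned, to 0.29 and 0.38.

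Of 47 NRF2 and antioxidant genes 13 were higher and 17 lower (27.7 and 36.2%, against 24.4 and 23.9% of all genes). Of 7 heme, quinone and iron genes 5 rose and 1 fell. Of 11 thioredoxin genes 1 rose and 6 fell, and all 4 genes that remove superoxide and peroxide fell. *Ephx1*, an epoxide hydrolase, read 21.3, 24.1, 24.7 and 39.8 CPM in WT and 209, 308, 248 and 215 CPM in FANKO. *Gpx3*, the secreted glutathione peroxidase, fell, from 463, 467, 631 and 762 CPM in WT to 38.4, 55.2, 46 and 41.7 CPM in FANKO. *Osgin1* rose by 3.08 ± 0.42 and the NRF2 partner *Maff* by 3.94 ± 0.31 (log2, SE). The list's median minus that of all genes was -0.0893, and -0.096 with library size alone, a scaling that moved all genes up and called 26 members higher and 7 lower. Without FANKO replicates 1 and 4 it turned to 0.0421. *Nfe2l2* (NRF2) and *Keap1*, its inhibitor, had log2 fold changes of 0.15 and -0.08 with adjusted p of 0.19 and 0.465, and that of *Keap1* turned to 0.47 with library size alone. *Bach1*, a competitor of NRF2, rose by 0.60.

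Of 22 p53 and DNA damage genes 13 rose and 3 fell (59.1% higher, against 24.4% of all genes), with a median of 1.07. *Gadd45b* rose by 4.04 ± 0.34 and *Gadd45a* by 2.69 ± 0.35, both growth arrest genes. *Cdkn1a*, the cell cycle inhibitor p21, read 6.45, 8.36, 5.23 and 12.7 CPM in WT and 38.3, 50.1, 39.5 and 36.4 CPM in FANKO. *Mdm2*, the p53 ubiquitin ligase and a p53 target, rose by 0.58 ± 0.09, and *Eda2r* by 1.82 ± 0.23. Immediate early genes rose in 18 of 28 cases and fell in 1 (64.3% higher), with a median of 1.39. *Fos* read 0.361, 0.283, 0.468 and 1.05 CPM in WT and 20.1, 15.2, 10.4 and 24.4 CPM in FANKO. The orphan receptors *Nr4a1* and *Nr4a3* rose by 3.82 ± 0.45 and 3.43 ± 0.43 (log2, SE). Macrophage and T cell marker sums were higher in the same libraries.

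Of 22 glucocorticoid-responsive genes and metallothioneins 10 fell and 4 rose (45.5 and 18.2%, against 23.9 and 24.4% of all genes). The glucocorticoid receptor *Nr3c1* fell by 0.60 on the log2 scale, and by 0.0367 with library size alone, which did not pass. *Klf15*, a glucocorticoid-induced regulator of amino acid breakdown, read 46.2, 71.3, 40.5 and 74.2 CPM in WT and 4.95, 6.75, 5.54 and 4.89 CPM in FANKO. *Fkbp5*, a cochaperone of the receptor that glucocorticoids induce, rose by 1.72 ± 0.46, a call lost without FANKO replicates 1 and 4 (adjusted p = 0.0208) and with limma-voom (0.0139). The list's median minus that of all genes was -0.33, and -0.349 with library size alone, where 6 members were called higher and 3 lower. Of 20 hypoxia genes 8 fell and 3 rose, a called share of 55% beside 48.2% of all genes. Their median minus that of all genes was -0.264, and -0.259 with library size alone (8 higher, 6 lower). *Bnip3*, a mitophagy receptor, fell by 2.32, *Pfkfb3*, which drives glycolysis, by 2.22, the oxygen sensor *Egln1* by 1.30 and the factor *Epas1* (HIF2alpha) by 1.28. *Hif1a* had a log2 fold change of -0.23 (adjusted p = 0.116).

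Whether the genotype effect at ZT 6 differed from that at the other times was tested directly, as the log2 fold change at ZT 6 minus the mean of those at ZT 10, ZT 18 and ZT 22. This difference passed for 106 of 20249 genes (0.523%), 54 higher and 52 lower at ZT 6. Of the 281 stress genes 2 passed (0.712%), which were *Hspa8* and *Mt2*. The share is near that of all genes. At a looser FDR of 0.05 the counts were 15 stress genes (5.34%) and 340 of all genes (1.68%), and at an unadjusted p under 0.05 they were 63 (22.4%) and 2445 (12.1%). By list, 16 of 45 heat shock genes (35.6%), 9 of 22 p53 genes (40.9%) and 7 of 22 glucocorticoid genes and metallothioneins (31.8%) lay under that unadjusted p. The shares were 7 of 28 immediate early genes, 8 of 32 genes of the unfolded protein response and 5 of 20 hypoxia genes (25% each), 9 of 54 ATF4 genes (16.7%), 4 of 47 NRF2 genes (8.51%), 1 of the 2 cold-induced genes and 0 of 16 mitochondrial chaperones and proteases. For the last of these edgeR called 0 differences at either FDR.

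Set against each time alone, edgeR called differences to both dark-phase times and none to ZT 10. Against ZT 10, the end of the light phase, edgeR called 0 of 20249 genes and 0 of 281 stress genes, limma-voom 0 and 0, and DESeq2 4 genes (0.0198%) and 0 stress genes. At an unadjusted p under 0.05, edgeR had 1174 genes (5.80%) and 17 stress genes (6.05%) there. Against ZT 18, the middle of the dark phase, edgeR called 396 genes (1.96%) and 20 stress genes (7.12%), and against ZT 22 it called 142 genes (0.701%) and 9 stress genes (3.20%). These single-time contrasts share the ZT 6 samples and were chosen after seeing the data.

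**Figure D2:**
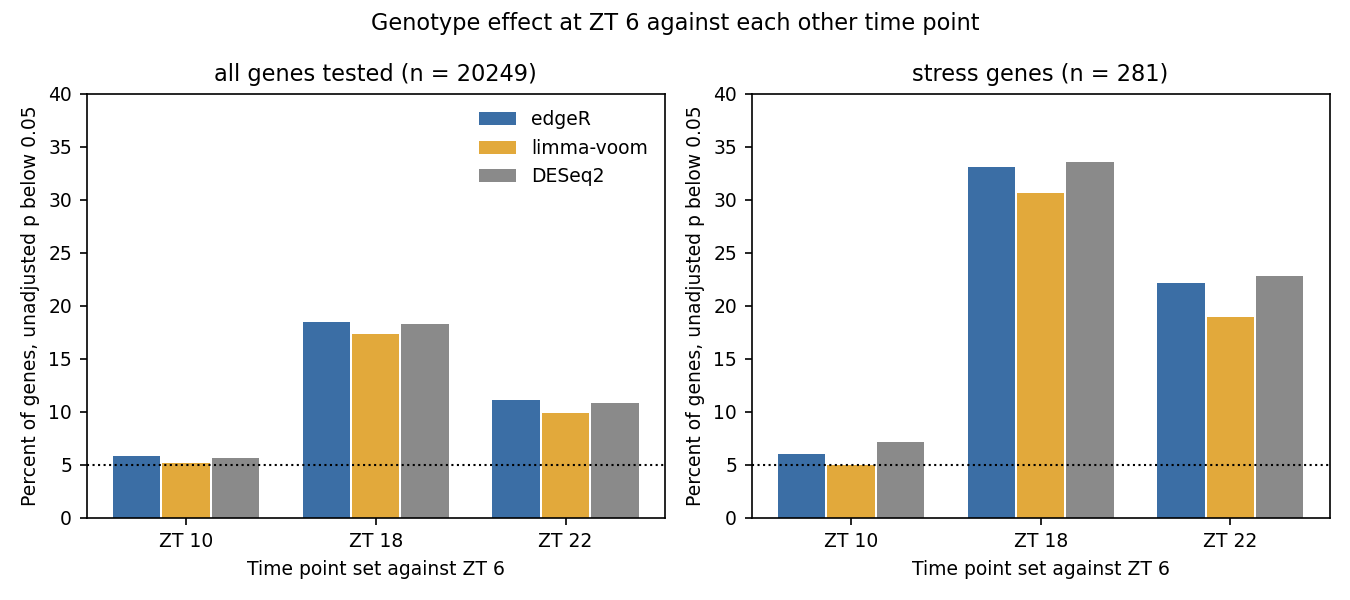
Percent of genes with an unadjusted p under 0.05 when the genotype effect at ZT 6 is set against each other time point alone, for all 20249 genes tested (left) and the 281 stress genes (right), by edgeR, limma-voom and DESeq2, with a dotted line at 5%. The shares by edgeR lie close together against ZT 10 (5.80 and 6.05%) and apart against ZT 18 (18.5 and 33.1%) and ZT 22 (11.1 and 22.1%).

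*Hspa8* encodes HSC70, the constitutive HSP70 chaperone (GRCm38 chr9:40800984-40810087, plus strand). At ZT 6 it read 201, 214, 146 and 174 CPM in WT and 422, 391, 458 and 356 CPM in FANKO, with no overlap. The log2 fold change was 1.15 ± 0.16 (SE, adjusted p = 9.94e-09). The effects of 0.35 (ZT 10), -0.28 (ZT 18) and -0.24 (ZT 22) did not pass the test.

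*Hspa8* spanned a wider range of levels over the 4 times in WT than in FANKO. In WT it ran from 146 to 214 CPM (ZT 6), 195 to 370 (ZT 10), 1094 to 1176 (ZT 18) and 799 to 1211 (ZT 22). In FANKO it ran from 356 to 458, 334 to 443, 811 to 1081 and 643 to 996 CPM at the same times (4 samples each). The groups thus met at every time except ZT 6 and, by a narrow gap, ZT 18. The effect at ZT 6 exceeded the mean of the others by 1.20 ± 0.18 (log2, SE, adjusted p = 4.69e-05), and against ZT 10 alone by 0.79, which did not pass (adjusted p = 0.262). Of its exonic bases 6.09% are shared with 3 small nucleolar RNA genes, each at 0 counts in all 8 ZT 6 samples.

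**Figure D3:**
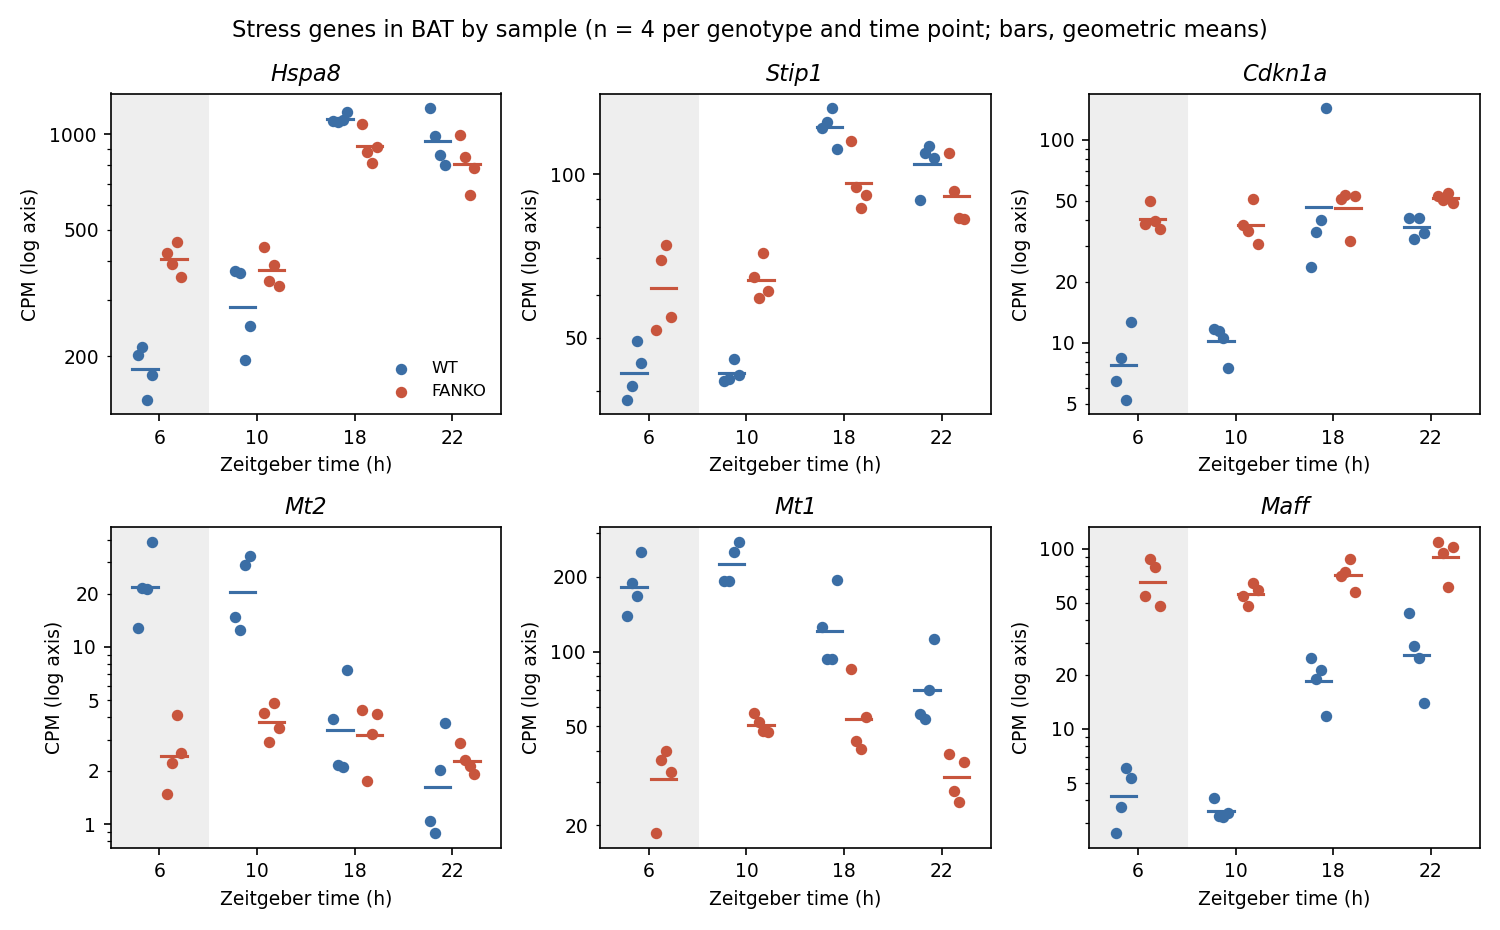
Level (CPM, log axis) of stress genes in each WT and FANKO BAT sample at ZT 6, ZT 10, ZT 18 and ZT 22, drawn as evenly spaced categories with ZT 6 in grey. Points are samples and bars are geometric means of 4. For *Hspa8* the FANKO points lie above the WT points at ZT 6 and below or among them at ZT 18 and ZT 22.

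*Mt2* and its neighbour *Mt1* encode metallothioneins, small proteins that bind zinc and copper and are induced by metals and glucocorticoids. At ZT 6 *Mt2* read 12.8, 21.6, 21.2 and 39.3 CPM in WT and 1.48, 2.21, 4.11 and 2.51 CPM in FANKO. *Mt1* read 140, 189, 168 and 252 CPM in WT and 18.6, 36.6, 39.9 and 32.8 CPM in FANKO. Neither gene had a FANKO sample that reached a WT sample. The log2 fold changes were -3.22 ± 0.39 for *Mt2* and -2.55 ± 0.23 for *Mt1* (SE).

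The promoters of both genes are shown because they hold the letters of the metal response element, the binding motif of the metal-sensing factor MTF1. The windows are the 250 bases before each start site, from RefSeq on GRCm38.p6, and capitals mark matches of TGCACNC or TGCGCNC on either strand. Mt2 lies at chr8:94172368-94172617 and Mt1 at chr8:94178839-94179088, both on the plus strand. The Mt2 window holds 3 matches, one of them on the reverse strand, and the Mt1 window holds 1. GENCODE starts the genes at 94172664 (Mt2) and 94179082 (Mt1). Bases outside the windows were not searched, so the counts do not compare the whole promoters. These letters are not particular to the metallothioneins, since among the other stress genes looked at *Fosl2* holds 2 matches, *Cdkn2b* holds 1 and *Maff* holds 2 in one of its 3 windows. Of 32851 such windows over all genes 21.4% hold at least 1, and a match is a description of letters and not a measured site.
Mt2: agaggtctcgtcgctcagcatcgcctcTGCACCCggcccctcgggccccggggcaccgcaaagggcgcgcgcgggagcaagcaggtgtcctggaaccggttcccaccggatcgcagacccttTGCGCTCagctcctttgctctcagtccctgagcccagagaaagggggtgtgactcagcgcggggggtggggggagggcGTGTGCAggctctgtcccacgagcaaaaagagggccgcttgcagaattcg
Mt1: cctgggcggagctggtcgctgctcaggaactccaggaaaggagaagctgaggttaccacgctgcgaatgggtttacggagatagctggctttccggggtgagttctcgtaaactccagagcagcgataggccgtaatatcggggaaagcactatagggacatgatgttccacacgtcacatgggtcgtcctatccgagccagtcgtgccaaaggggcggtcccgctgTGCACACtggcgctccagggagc

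In WT BAT *Mt2* was high in the light phase, at 12.5 to 32.5 CPM at ZT 10, and low in the dark phase, at 2.11 to 7.43 CPM at ZT 18 and 0.887 to 3.71 CPM at ZT 22. In FANKO it stayed between 1.48 and 4.81 CPM over all 16 samples. The genotype effect was -2.50 at ZT 10, where it passed the test, and -0.14 and 0.17 at ZT 18 and ZT 22, where it did not. At ZT 6 it lay 2.39 ± 0.45 below the mean of the others (log2, SE, adjusted p = 0.00136), a call lost without WT ZT 6 replicate 4 (adjusted p = 0.0155), without FANKO ZT 6 replicate 1 (0.0116), in a fit of BAT samples alone (0.0141) and without both FANKO ZT 6 replicates 1 and 4 (0.0608). Against ZT 10 alone it was -0.72 (adjusted p = 0.98). *Mt1* differed by -1.04 ± 0.26 (adjusted p = 0.0211), which did not pass.

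The values for *Mt2* rest on 152 to 451 counts per WT library and 26 to 52 per FANKO library. The antisense gene *Gm45774* covers 73.5% of its exonic bases, with 8 to 26 counts in WT and 2 to 4 in FANKO. The strand setting of the counting is not given in the sources used here, so reads of the 2 genes may not be fully separated.

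The other 13 stress genes with an adjusted p under 0.05 for the difference were named after their values were seen, and none passed the FDR of 0.01. Those with a larger effect at ZT 6 were *Stip1*, *Ppid*, *Dnajb5*, *Maff*, *Cdkn1a*, *Gadd45b*, *Cdkn2b*, *Fosl2*, *Fkbp5* and *Zbtb16*, and those with a lower one were *Hyou1*, *Cbr1* and *Mt1*. *Stip1*, which links HSP70 to HSP90, read 38.5, 40.8, 49.3 and 44.9 CPM in WT and 51.8, 69.6, 74 and 54.7 CPM in FANKO at ZT 6. Its genotype effects were 0.53, 0.57, -0.33 and -0.19 from ZT 6 to ZT 22, a difference of 0.51 ± 0.12 (log2, SE, adjusted p = 0.0111). Like *Hspa8*, it was higher in WT at ZT 18 (111 to 132 CPM) than at ZT 6. *Dnajb5*, a J-domain protein, differed by 0.76 ± 0.17 with an adjusted p just above 0.01.

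The difference for *Cdkn1a* was 1.67 ± 0.39 (adjusted p = 0.0117), with genotype effects of 2.35, 1.89, -0.34 and 0.48 from ZT 6 to ZT 22. One control library weighed on it. WT ZT 18 replicate 4 read 143 CPM for *Cdkn1a* beside 23.6 to 40.3 CPM in the other ZT 18 WT samples, 134 CPM for *Fkbp5* beside 10.6 to 29.5 CPM, and 255 CPM for *Zbtb16* beside 23.8 to 52.6 CPM. Without this library the difference was 1.38 for *Cdkn1a* (adjusted p = 0.00621), 1.47 for *Fkbp5* (0.0157, from 1.91 and 0.0364) and 1.54 for *Zbtb16* (0.0147, from 1.99 and 0.0271). In that fit 8 of 281 stress genes passed in place of 2, and 151 of 20721 genes tested in place of 106 of 20249. *Maff* differed by 1.39 ± 0.34 (adjusted p = 0.0177), rising by 3.94 and 4.00 at ZT 6 and ZT 10 and by 1.91 and 1.74 at ZT 18 and ZT 22. Its FANKO level was 47.8 to 87.8 CPM at ZT 6 and 57.7 to 87 CPM at ZT 18, while its WT level was 2.63 to 6.09 CPM and 11.8 to 24.8 CPM.

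**Figure D4:**
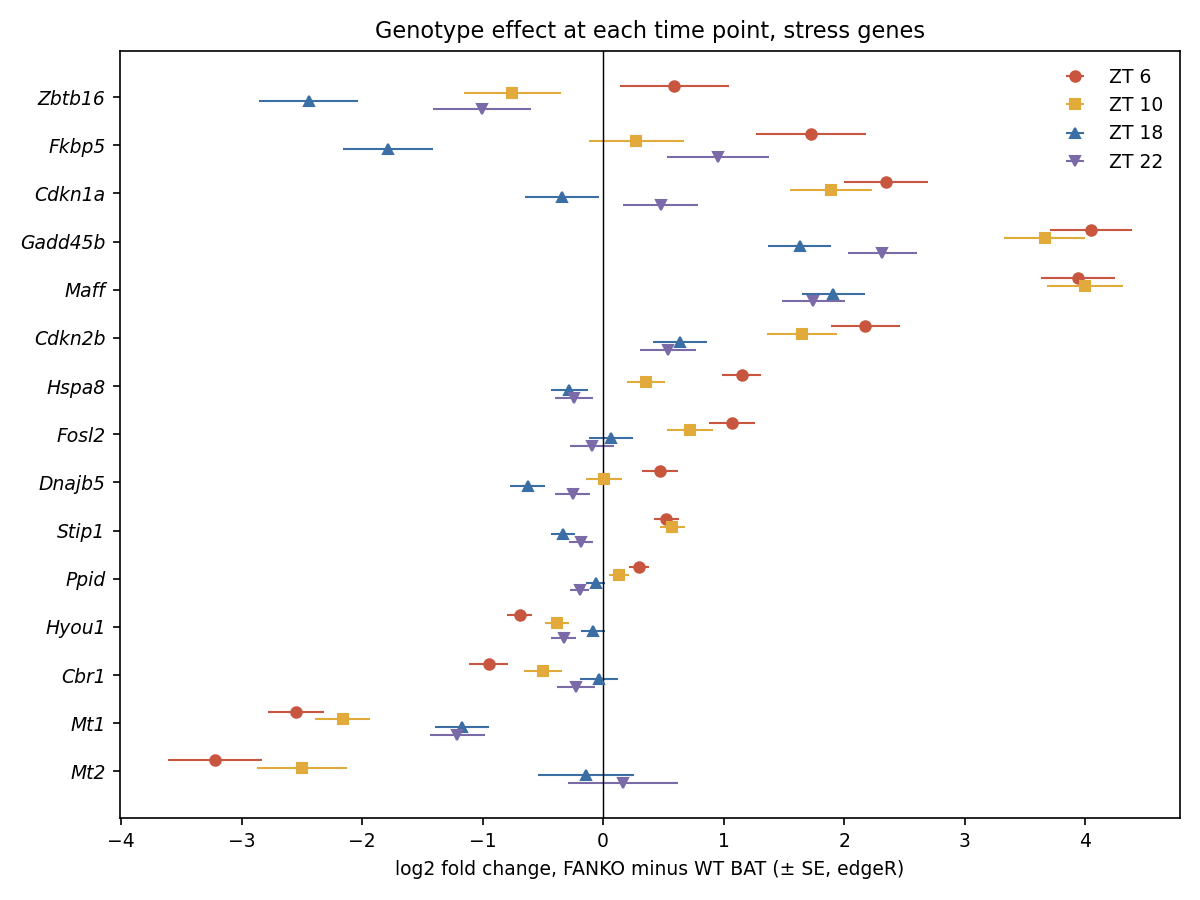
Genotype effect (log2 FANKO over WT, bars 1 SE) at ZT 6, ZT 10, ZT 18 and ZT 22 for the 15 stress genes with an adjusted p under 0.05 for the difference. For *Mt2* the effect is -3.22 at ZT 6 and -2.50 at ZT 10 but -0.14 and 0.17 at ZT 18 and ZT 22.

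Over all genes, the smallest p for the difference belonged to *Cry1*, a repressor of the core clock. It read 8.41, 6.66, 5.23 and 5.58 CPM in WT and 13.5, 18.1, 18.5 and 13.7 CPM in FANKO at ZT 6, with no overlap. The genotype effect was 1.28 ± 0.15 at ZT 6 and 0.14, -0.69 and -0.90 at the later times, a difference of 1.76 ± 0.17 (log2, SE, adjusted p = 8.32e-10). Among 20 clock genes 4 passed for the difference (20%, against 0.523% of all genes). At ZT 6, 4 clock genes rose and 7 fell (20 and 35%, a called share of 55% beside 48.2% of all genes), which became 7 and 5 with library size alone. The output factors *Hlf* and *Tef* fell by 2.06 and 1.38 on the log2 scale at ZT 6 and the repressor *Per3* by 1.52, and none of these 3 passed for the difference.

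*Arntl* (BMAL1), the activator of the clock, read 4.75, 3.54, 3.20 and 10.2 CPM in WT and 22.5, 12.3, 11.3 and 15.5 CPM in FANKO at ZT 6. Its effect was 1.5 at ZT 6 and 2.24 at ZT 10, and it was -1.0 and -0.96 at ZT 18 and ZT 22. The difference of 1.41 ± 0.30 passed (adjusted p = 0.00687) but was lost in 7 of the 32 fits that left out 1 sample, and set against ZT 10 alone it turned to -0.74 (adjusted p = 0.918). Lowest of the 7 was the fit without FANKO ZT 6 replicate 1, with 1.17 (adjusted p = 0.0548). The others left out WT ZT 6 replicates 1, 2 or 3, WT ZT 10 replicates 1 or 2, or FANKO ZT 6 replicate 4, with adjusted p from 0.0105 to 0.0316. The call was lost as well in a fit of BAT samples alone (0.0142), with library size alone (0.0211), with limma-voom (0.0167) and without FANKO replicates 1 and 4 together (0.195).

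The other genes with a higher effect at ZT 6 and the smallest p were *Mgea5*, *Slc39a10*, *Kit*, *Klf13*, *Svil* and *Gprin3*, beside *Hspa8*. *Mgea5* encodes the enzyme that removes O-GlcNAc from proteins, and its difference was 0.76 ± 0.10. *Slc39a10*, a zinc importer, read 13.9, 13.9, 12.7 and 12.5 CPM in WT and 31.2, 27.9, 27.2 and 30.2 CPM in FANKO, and its effects were 1.14, 0.69, 0.03 and -0.01 from ZT 6 to ZT 22. The call for its difference was lost with library size alone (adjusted p = 0.0105). *Kit*, a receptor tyrosine kinase, had effects of 1.19, 0.02, -0.81 and -0.83. *Klf13*, a transcription factor, had effects of 0.67, -0.24, -1.07 and -0.14. *Svil*, an actin-binding protein, rose by 1.61 ± 0.13 at ZT 6 with a difference of 0.99 ± 0.15. *Gprin3* did not pass at ZT 6 itself (0.30, adjusted p = 0.229), and its difference of 1.58 ± 0.25 lay with effects of -1.68 at both ZT 18 and ZT 22.

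The 8 genes with a lower effect at ZT 6 were *Fbxl6*, *Atg4d*, *Tmem171*, *Nectin2*, *Ubtf*, *Ffar4*, *Cntfr* and *Asb1*. Without FANKO replicates 1 and 4 the calls for all of these but *Fbxl6* and *Tmem171* were lost (adjusted p 0.0146 to 0.0601). In a fit of BAT samples alone those for *Ffar4*, *Cntfr* and *Asb1* were lost (0.0122, 0.0116 and 0.0119), and with library size alone that for *Asb1* (0.0129). *Fbxl6*, an F-box protein, read 33.8, 29.3, 30.8 and 33 CPM in WT and 11.4, 11, 11.2 and 11.1 CPM in FANKO, and its difference was -0.75 ± 0.09. *Ffar4*, the receptor for long-chain fatty acids GPR120, read 22.8, 43.4, 27 and 88.3 CPM in WT and 2.73, 3.74, 5.22 and 3.76 CPM in FANKO, with effects of -3.56, -2.20, -1.63 and -1.43 from ZT 6 to ZT 22. Its difference of -1.81 ± 0.32 (adjusted p = 0.000533) was also lost without WT ZT 6 replicate 4 (0.0128) and with limma-voom (0.0207). *Atg4d*, a protease of autophagy, and *Ubtf*, a factor of ribosomal RNA transcription, fell by 1.42 and 0.86 at ZT 6 (log2). *Tmem171* did not pass at ZT 6 (-0.44, adjusted p = 0.449), while its effects at ZT 18 and ZT 22 were 4.31 and 4.47. Of the largest decreases at ZT 6, *Zfp185* passed for the difference as well, with -1.94 ± 0.37 (adjusted p = 0.00164). That call was lost without FANKO ZT 6 replicate 1 (0.0119), without FANKO replicates 1 and 4 (0.0596) and with limma-voom (0.106).

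**Figure D5:**
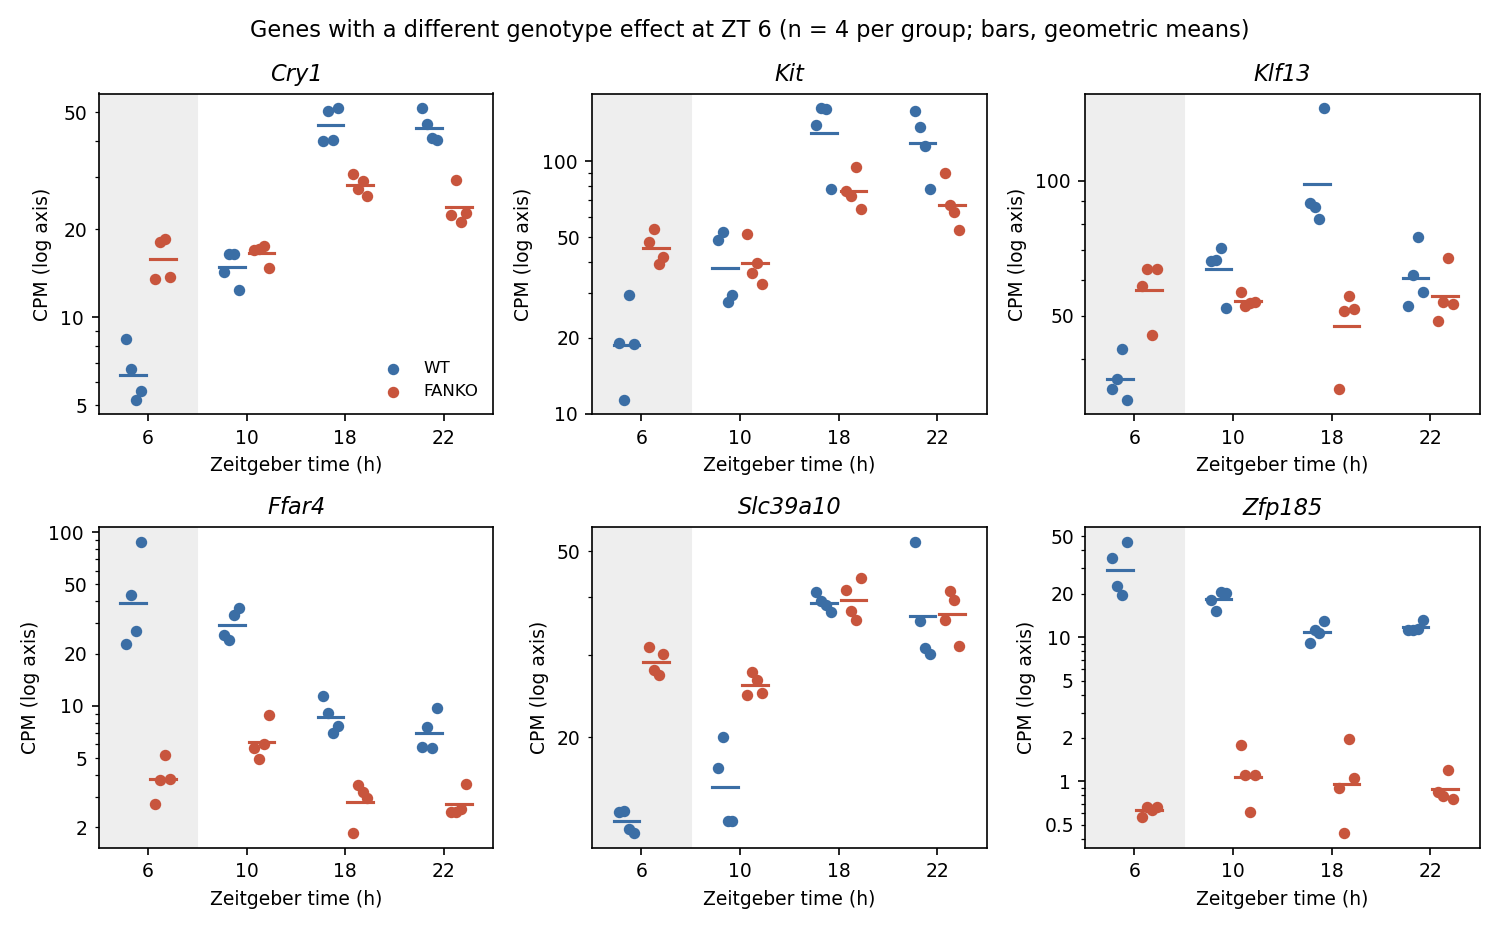
Level (CPM, log axis) of genes outside the stress lists in each WT and FANKO BAT sample at the 4 time points, with ZT 6 in grey, points for samples and bars for geometric means of 4. *Cry1* in FANKO lies above WT at ZT 6 (13.5 to 18.5 against 5.23 to 8.41 CPM) and below it at ZT 18 and ZT 22.

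The count of 106 depended on single libraries. It was 42 without WT ZT 6 replicate 4, 66 without WT ZT 6 replicate 2, 43 without FANKO ZT 6 replicate 1 and 62 without FANKO ZT 6 replicate 4. Without FANKO replicates 1 and 4 together it was 30, of which 24 were higher and 6 lower at ZT 6. *Nampt* itself did not pass for the difference (0.49 ± 0.15, adjusted p = 0.0902). In simulated data with the same design, the ZT 6 test found 38, 73 and 96% of changes of 0.5, 1 and 2 (log2), and the difference test found 26, 68 and 90%, so that smaller differences between time points were often not detectable with 4 samples per group.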

How the data were processed

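Total RNA of BAT and eWAT was depleted of ribosomal RNA and made into stranded libraries (Illumina TruSeq) by the authors, who deposited whole-number counts per gene, 1 column per sample, without normalization. The submitters' processing notes name STAR 2.5.3a, featureCounts 1.5.3 and the genome build GRCm38.p5. The strand and multi-mapping options of the counting are not given in the sources used here. That touches genes that overlap on opposite strands and near-identical copies such as *Hspa1a* and *Hspa1b*.

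Counts of all 64 samples were analysed in R 4.3.3 with edgeR 4.0.16 (quasi-likelihood test, 1 mean for each of the 16 groups). filterByExpr with a minimum count of 10 kept 20249 genes and removed 32387, and libraries were scaled by TMM. Calls were made at a Benjamini-Hochberg FDR of 0.01 taken over every gene in the fit. CPM values were divided by the TMM-scaled library size. The difference of ZT 6 to the other times was a contrast in the same model, and the SE was the log2 value divided by the root of its F statistic. Animals at different times are different mice, and the labels do not say how the 4 samples of a group were taken, so p values measure the spread between these samples. limma 3.58.1 and DESeq2 1.42.0 were alternatives. Sequences and figures were handled in Python 3.11.15 (numpy 2.4.6, matplotlib 3.10.9 and scipy 1.17.1). Coordinates and overlaps come from GENCODE annotation on GRCm38. Promoter windows were found for 11 of the 15 stress genes with a difference under an FDR of 0.05.

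The comparison and the gene lists were chosen with earlier results of these data known. Genes were named by rule: *Nampt*, stress genes called for the difference, up to 4 members of each list with the largest called change at ZT 6 and a mean log2 CPM of at least 1, the 8 largest increases and decreases with non-overlapping groups, the 8 smallest p of each direction for the difference, and the regulators of the lists. The test was tried on simulated counts for 19744 genes, with 200 changed at ZT 6 and no other genotype effect in BAT. It called 3 and 2 of 19544 unchanged genes in the 2 tests. The eWAT samples entered the fit. Apart from the brown adipocyte marker sum and *Ucp1*, their values are described only at the end.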

Additional observations from a re-analysis of the deposited data

Results flagged for a closer look

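Among 250 groups of 4 samples, 6 held a value far from the other 3, fewer than the 12.5 that chance gives at 1 in 20. These were *Nampt* in WT replicate 1 (558.5 CPM), *Ighg2c* in FANKO replicate 3 (135 CPM), *Car3* in FANKO replicate 1 (249.3 CPM), *Eif2ak3* in FANKO replicate 3 (18.5 CPM), and the skeletal muscle marker sum in WT replicate 1 (326 CPM) and FANKO replicate 1 (222 CPM).

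The genotype effect at ZT 6 differed from the mean of the other BAT time points, by the direct test, for 19 of the genes named. Most of these were named for their p in this same test, so the count is not a rate. Over all genes tested 106 of 20249 (0.523%) passed. The difference was positive for *Hspa8* (1.20), *Cry1* (1.76), *Kit* (1.73), *Gprin3* (1.58), *Arntl* (1.41), *Klf13* (1.15), *Svil* (0.995), *Slc39a10* (0.902) and *Mgea5* (0.761), on the log2 scale. It was negative for *Tmem171* (-3.93), *Mt2* (-2.39), *Cntfr* (-2.17), *Zfp185* (-1.94), *Ffar4* (-1.81), *Fbxl6* (-0.75), *Nectin2* (-0.709), *Atg4d* (-0.663), *Ubtf* (-0.602) and *Asb1* (-0.562).

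The effect on *Mt2* at ZT 6 also differed between depots, with BAT minus eWAT at -3.17 (log2, adjusted p = 6.89e-07 by edgeR).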

How the results depend on the processing

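With library size alone 9203 genes were higher and 1587 lower, the difference passed for 40 genes (18 higher, 22 lower), and the effects of *Hsf2* (0.16), *Keap1* (0.47), *Eif2ak1* (0.29) and *Eif2ak3* (0.38) turned positive. The difference passed for 67 genes (27 lower) with no filter, 26 (17 and 9) with BAT samples only and 81 (33 higher) with limma-voom. With DESeq2 it passed for 203 (119 and 84). A joint test of equal effects at all 4 times, which a gene can pass through any of the times, called 432 genes. Their ZT 6 difference was positive for 246 and negative for 186. At an FDR of 0.05 the difference passed for 340 (169 and 171). Of the 281 stress genes 4 passed with RLE factors, beside 112 of all 20249 genes, and 5 with a minimum count of 50, beside 142 of 14113. With DESeq2 11 stress genes passed, beside 203 of all 20249 genes. At an FDR of 0.05 the count was 15, beside 340. The joint test called 25, beside 432. Among alternatives added after seeing the data, leaving out FANKO ZT 6 replicates 1 and 4 gave 30 (24 and 6). Also added were ZT 10 alone with 0 (0 and 0, stress 0, *Arntl* at -0.74), ZT 18 alone with 396 (209 and 187, stress 20) and ZT 22 alone with 142 (92 and 50, stress 9). The 32 fits without 1 sample gave 8819 to 9935 genes at ZT 6 (4519 to 5037 higher, 4300 to 5044 lower) and 162 to 183 stress genes, and for the difference 42 to 151 genes (25 to 78 higher, 14 to 77 lower) and 1 to 8 stress genes. RLE factors moved the share of difference calls that were higher from 50.9 to 61.6%. *Hspa8* passed in 47 of 48 settings and *Mt2* in 43. The cause of these shifts was not tested. Depth limits genes at a few counts per library, such as *Ighg2c* and *Oas3* in WT.

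With the replicate block, 9962 genes passed at ZT 6, 133 for the difference and 4 stress genes for the difference, *Cdkn1a* (adjusted p = 0.00838) and *Stip1* (0.00857) being added. Whether equal numbers pair the samples is not given by the labels, and for that reason they were not treated as pairs in the main fit. The mean correlation of deviations was 0.0365 for the same number and -0.0122 for others, with ZT 6 pairs from 0.0275 to 0.225. Yet 22 of 32 BAT samples correlated best with their own number out of 4, more than equal odds for each number would give. What samples of equal number share was not tested.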

Other observations

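At ZT 6 the same contrast in eWAT, the other fat depot sequenced, called 5458 genes (27%), 3420 higher and 2038 lower in FANKO. Of the stress genes 141 were higher and 25 lower there. *Hspa8* rose in eWAT by 1.05 ± 0.16 on the log2 scale, and its effect in BAT exceeded that by 0.10 ± 0.22 (adjusted p = 0.728), a difference that did not pass. *Mt2* and *Mt1* had effects of -0.05 and 0.37 in eWAT, neither of which passed, and BAT lay below eWAT by 3.17 ± 0.52 and 2.92 ± 0.32 (edgeR, adjusted p = 6.89e-07 and 3.14e-11). *Gadd45b* rose in BAT and had an effect of -0.02 in eWAT, a difference of 4.07 ± 0.44 (adjusted p = 2.07e-11).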
